A study of Mus musculus with 40 samples.

Results

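The transcripts described here come from 10 mouse genes that mark lymphoid priming of blood progenitors and the first steps of B cell development: Dntt, Satb1, Notch1, Gpr171, Il7r, Rag1, Ebf1, Pax5, Vpreb1 and Igll1. They were selected by symbol from the 35976 gene symbols of the deposited count table, and all 10 were found. Their levels are given as normalised CPM, that is, reads of a gene per 1e+06 gene reads of a library after TMM scaling, a correction for differences in library composition. All 10 genes had at least 1 read in c-kit+ cells, and how many of them could be tested in each sorted population is stated with each comparison.

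RNA from mouse bone marrow was sequenced after amplification with a SMART-Seq2 type protocol on polyA RNA. The study set cells without Dnmt3a, a DNA methyltransferase, against wild type (WT), and in c-kit+ cells also removed Sting, the adaptor that relays cytosolic DNA sensing to interferon genes. Long-term haematopoietic stem cells (LT-HSC) and the joint fraction of common myeloid and granulocyte-macrophage progenitors (CMP/GMP) each had 4 Dnmt3a knockout (KO) and 4 WT libraries, and megakaryocyte-erythroid progenitors (MEP) had 4 KO and 3 WT libraries. The c-kit+ fraction, which mixes stem cells, progenitors and other cells bearing the receptor, had 3 libraries of the Dnmt3a/Sting double knockout (DKO), 2 of the Dnmt3a KO, 2 of the Sting KO and 2 of WT. The series describes the Dnmt3a KO as Dnmt3a f/f with Mx1-Cre, whose promoter responds to interferon and acts in blood cells and in other tissues. The Sting allele, the induction of Cre, the age of the mice and whether WT mice carried Cre are not given in the labels. The labels name no animals, so a p-value here sets a difference against the spread of libraries alone, which may in part be technical. In bulk RNA, fewer cells of a type and less RNA per cell cannot be told apart.

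Gene reads per library, in units of 1e+06 reads, ranged from 27.4 to 40.0 in c-kit+ cells, 33.2 to 47.7 in CMP/GMP, 16.9 to 45.8 in LT-HSC and 3.44 to 36.0 in MEP. Dnmt3a was lower in every CMP/GMP and c-kit+ library without Dnmt3a than in the matching WT libraries, and Tmem173, the gene of Sting, was at 10.1 to 11.8 CPM in the 5 c-kit+ libraries of the DKO and Sting KO, against 55.1 and 66.8 CPM in WT. In LT-HSC, the library labelled KO 3 held 104 CPM of Dnmt3a, above 3 of the 4 WT libraries, and in MEP the library labelled KO 2 held 43.8 CPM, above 2 of the 3 WT libraries. LT-HSC WT 1 and KO 2 and MEP KO 1 and KO 2 correlated at only 0.46 to 0.55 with the other libraries of their groups. The pair MEP KO 3 and KO 4 correlated at 0.99, and the pair CMP/GMP WT 2 and WT 4 at 0.98. Whether either pair shares an origin was not tested, and the main fits count each library as separate. The 8 short-term stem cell libraries were not analysed here.

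Lymphoid fate is prepared before any B cell gene is fully active. Multipotent progenitors begin to transcribe Dntt, Satb1, Notch1 and the gene of the interleukin 7 receptor alpha chain, Il7r, at low levels. In the common lymphoid progenitor and the pro-B cell, the transcription factors Ebf1 and Pax5 then become active. Ebf1 helps to switch on the surrogate light chain genes Vpreb1 and Igll1, and the Rag1 recombinase begins to cut the immunoglobulin loci. The myeloid and erythroid progenitors that were sorted here normally leave this path.

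The promoters of Igll1, Rag1 and Vpreb1, the early B members that held an EBF or E-box motif, are shown first, because early B cell factors act at such promoters. Those of Ebf1 and Pax5 held neither motif and are not printed. They cover the 250 bases before the annotated start, from RefSeq on GRCm38.p6, 5′ to 3′ on the strand of the gene, which is the minus strand for all of those printed. Capitals mark matches to CCCNNGGG (EBF), CAGGTG or CACCTG (E-box) and TGTGGT or ACCACA (Runx) on either strand. Igll1 at chr16:16863986-16864235 held all 3 motifs, Rag1 at chr2:101649533-101649782 an E-box and 2 Runx matches, and Vpreb1 at chr16:16869256-16869505 an E-box. The genes Igll1 and Vpreb1, whose products pair to form the surrogate light chain, lie 4415 bases apart on chromosome 16.
Igll1: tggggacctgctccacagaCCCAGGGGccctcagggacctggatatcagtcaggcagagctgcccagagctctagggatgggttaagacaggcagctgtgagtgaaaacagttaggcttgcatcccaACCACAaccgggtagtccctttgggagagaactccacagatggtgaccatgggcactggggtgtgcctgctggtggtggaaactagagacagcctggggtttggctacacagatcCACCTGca
Rag1: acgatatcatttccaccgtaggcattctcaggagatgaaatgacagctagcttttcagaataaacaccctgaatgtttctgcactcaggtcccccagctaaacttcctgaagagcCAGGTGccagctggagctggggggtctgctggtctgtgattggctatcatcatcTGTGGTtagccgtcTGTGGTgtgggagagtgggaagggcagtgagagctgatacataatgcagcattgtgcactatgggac
Vpreb1: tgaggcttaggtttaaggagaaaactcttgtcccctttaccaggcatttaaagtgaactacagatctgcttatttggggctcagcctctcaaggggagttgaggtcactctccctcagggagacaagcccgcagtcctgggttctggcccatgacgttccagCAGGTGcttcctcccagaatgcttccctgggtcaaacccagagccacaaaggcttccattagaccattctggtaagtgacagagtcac
Across 32851 promoters of the same length, 11.8% held the EBF motif, 17.2% the E-box and 14.05% the Runx motif, and no match overlapped another in the promoters printed. RefSeq promoters matched 9 of the 10 members, and of these 1 held the EBF motif (Igll1), 4 an E-box (Igll1, Rag1, Vpreb1 and, at another start than the one printed further on, Satb1) and 3 a Runx motif (Ebf1, Igll1 and Rag1). A match describes these letters only. Gpr171 had no entry.

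One further promoter is shown because Satb1 did not overlap between Dnmt3a KO and WT stem cells and Dnmt3a methylates CpG dinucleotides. Satb1 has 5 annotated starts, with 5, 41, 3, 12 and 6 CpGs in the 250 bases before them, against a median of 6 and a 90th percentile of 25 over all promoters. The start with 41 CpGs lies at chr17:51832648-51832897 on the minus strand, and capitals mark the CpGs.
Satb1: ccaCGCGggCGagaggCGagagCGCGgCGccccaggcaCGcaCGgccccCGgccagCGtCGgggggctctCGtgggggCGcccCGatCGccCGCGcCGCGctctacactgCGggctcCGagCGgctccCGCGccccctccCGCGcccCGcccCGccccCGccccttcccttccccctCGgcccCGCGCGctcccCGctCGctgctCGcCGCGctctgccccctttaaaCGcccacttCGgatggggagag
No methylation was measured in the libraries used here.

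Rag1, Ebf1, Pax5 and Igll1 were present in c-kit+ cells and at or near 0 in sorted WT cells, while Vpreb1 also had reads in each sorted WT population. Rag1 (chromosome 2, 101638252 to 101649532), the recombinase subunit, was at 37.4 and 31.5 CPM in the 2 c-kit+ WT libraries, against 0 reads in all 11 sorted WT libraries. Ebf1 (chromosome 11, 44618100 to 45008096), the B-lineage specification factor, was at 27.1 and 15.4 CPM in c-kit+ WT, against 0 reads in LT-HSC WT, 6 reads over the 4 CMP/GMP WT libraries and 4 reads over the 3 MEP WT libraries. Pax5 (chromosome 4, 44524748 to 44710694), the B-lineage commitment factor, was at 21.7 and 13.9 CPM in c-kit+ WT, against 0 reads in LT-HSC and MEP WT and 2 reads in CMP/GMP WT. No sorted WT library reached the level of a c-kit+ WT library for any of these 3 genes.

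Igll1 (chromosome 16, 16860671 to 16863985), the lambda 5 part of the surrogate light chain, was at 21.3 and 13.5 CPM in c-kit+ WT. LT-HSC WT held 4 reads of it, all in 1 library, and MEP WT 0 reads. In CMP/GMP WT, library 3 held 1.40 CPM, library 4 held 0.0483 CPM and the other 2 libraries 0 reads. Vpreb1 (chromosome 16, 16868401 to 16869255), its partner chain, was the member of this group seen in the most sorted libraries. It was at 9.64 and 5.49 CPM in c-kit+ WT, against 0, 4.12, 3.07 and 0 CPM in LT-HSC WT, 0.740, 5.12, 1.55 and 2.63 CPM in CMP/GMP WT and 0, 2.001 and 1.68 CPM in MEP WT. The lowest c-kit+ WT library stood just above the highest CMP/GMP WT library, and no difference of Vpreb1 between c-kit+ and sorted cells was called (adjusted p = 0.377 to 0.613). Its transcript is 97.4% identical over 759 bases to that of Vpreb2, so its reads are uncertain.

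Between c-kit+ WT and sorted WT cells, the quasi-likelihood test of edgeR, adjusted by Benjamini-Hochberg over 18518 genes, called 5 members higher and 1 lower against LT-HSC, 5 higher and 1 lower against CMP/GMP, and 8 higher and 0 lower against MEP. Of all genes tested, 20.3% were called against LT-HSC (13.9% higher and 6.35% lower), 21.2% against CMP/GMP (14.4% higher and 6.83% lower) and 22% against MEP (14.6% higher and 7.35% lower). The c-kit+ WT pair did not overlap with LT-HSC WT for 10 members, with CMP/GMP WT for 9 and with MEP WT for 10, where 47%, 61% and 67% of all genes did not overlap. Each count of higher members holds Rag1, Ebf1, Pax5 and Igll1, which passed the filter on low counts only through the c-kit+ libraries, where they are high, so their calls describe the levels above and are no further support. Igll1 against CMP/GMP lost its call in 5 of the 6 fits that left out 1 library, with adjusted p up to 0.131. With 3 reads over the group in place of 0, the c-kit+ WT mean of Rag1 was 1779-fold the level of LT-HSC WT. It was 1769.5-fold that of CMP/GMP WT and 1094-fold that of MEP WT. In the same way, the mean of Ebf1 was 1097-fold and that of Pax5 919.5-fold the level of LT-HSC WT. Both mates of a pair appear to be counted, so 3 reads may be too low a floor. These ratios are therefore not strict lower bounds. Each of the 32 libraries of the 4 populations entered 1 fit, so these comparisons share the c-kit+ WT pair. In every comparison between populations, here and below, population and any unrecorded batch cannot be told apart.

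Among the priming members, Il7r was the one closest to the B-lineage pattern. Il7r (chromosome 15, 9506159 to 9529941) was at 24.0 and 20.002 CPM in c-kit+ WT, against 0.658, 0, 9.65 and 0.418 CPM in LT-HSC WT, 0.0616, 0.254, 0.669 and 0.483 CPM in CMP/GMP WT and 0.191, 0.232 and 0 CPM in MEP WT. It was called higher than in CMP/GMP (log2 5.89, SE 1.74, adjusted p = 0.0170) and MEP (log2 7.24, SE 2.08, adjusted p = 0.0144), and not against LT-HSC (log2 3.03, SE 1.59, adjusted p = 0.180). The Il7r calls were lost without either c-kit+ WT library, CMP/GMP WT 1 or WT 2 in the first comparison and without any 1 MEP WT library in the second (adjusted p = 0.0507 to 0.0677). Satb1 was called higher in c-kit+ cells than in LT-HSC (log2 2.60, SE 0.76, adjusted p = 0.0177) and MEP (log2 3.13, SE 0.85, adjusted p = 0.00972). Notch1, the receptor that directs T cell fate, and Dntt were called higher in c-kit+ cells only in the comparison with MEP (log2 3.85 and 3.87, adjusted p = 0.00466 and 0.0476), and whether the differences from the sorted populations were unequal was not tested. The Satb1 call against LT-HSC was lost without either c-kit+ WT library or LT-HSC WT 3 (adjusted p up to 0.0861), that against MEP without MEP WT 1 or WT 3 (adjusted p up to 0.0536), and the Dntt call against MEP with RLE size factors (adjusted p = 0.0546) and without any 1 library other than MEP WT 3 (adjusted p up to 0.176).

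Gpr171 (chromosome 3, 59096448 to 59101821), a G protein-coupled receptor of lymphoid and progenitor cells, was the 1 member called lower in c-kit+ cells, against LT-HSC and CMP/GMP. It was at 19.98 and 15.8 CPM in c-kit+ WT, against 67.4, 143, 96.9 and 75.2 CPM in LT-HSC WT and 83.1, 74.3, 70.9 and 77.7 CPM in CMP/GMP WT. It was called lower in c-kit+ cells than in LT-HSC (log2 -2.42, SE 0.66, adjusted p = 0.0122) and than in CMP/GMP (log2 -2.09, SE 0.65, adjusted p = 0.0228). The highest c-kit+ WT library was below the lowest LT-HSC and CMP/GMP WT libraries. Against MEP WT, at 10.6, 14.995 and 7.19 CPM, the c-kit+ pair was above all libraries and the difference was not called (log2 0.71, SE 0.61, adjusted p = 0.430). Dntt also had a negative estimate against CMP/GMP, with overlapping libraries (log2 -0.30, SE 1.29, adjusted p = 0.920). Both Gpr171 calls were lost without either c-kit+ WT library, with adjusted p up to 0.131 against LT-HSC and 0.183 against CMP/GMP. Gpr171 lies within Med12l, and the strand setting of the counting is not given. Whether their exons overlap, so that reads of the pair could be mixed, was not tested. Notch1 and Pax5 also overlap other annotated genes, with the same limit.

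Markers of other cell types moved with the c-kit+ comparisons. The 6 macrophage markers summed to 1282 and 1352 CPM in c-kit+ WT, against at most 17.7 CPM in any sorted WT library. The 9 mature B and plasma cell genes in the table (of 11 listed) summed to 209 and 268 CPM in c-kit+ WT, against 5.31 to 388 CPM in sorted WT libraries, with Cd22 at 0 in every one of those. Whether mature B cells or plasma cells added to the c-kit+ levels of the members was not tested. Of the 14 other early B genes in the table (of 15 listed), 6, 9 and 9 were called higher in c-kit+ WT than in LT-HSC, CMP/GMP and MEP, and 0 lower. The filter also keeps genes present in c-kit+ cells alone, so these counts only describe. Pou2af1, the B cell coactivator, was at 24.8 ± 9.4 CPM in c-kit+ WT (SD, n = 2) and at 0 reads in all sorted WT libraries.

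**Figure D1:**
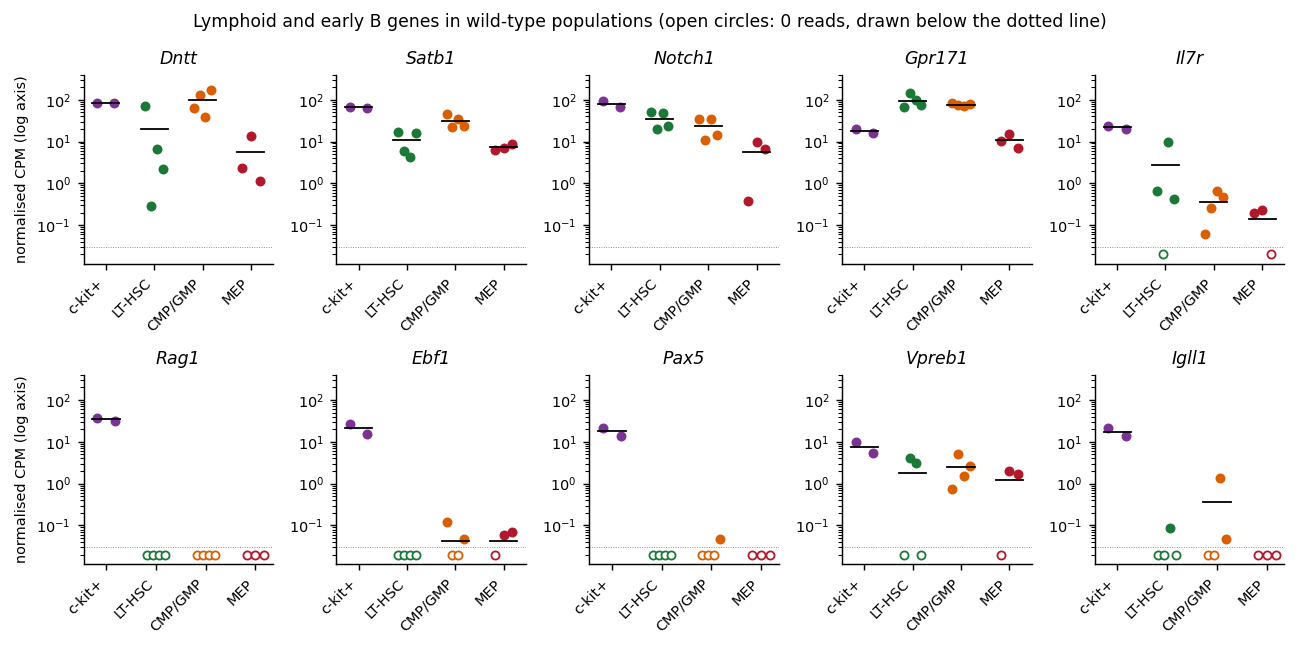
Normalised CPM (log axis) of the 10 genes in wild-type libraries of 4 populations; each point is 1 library, bars are means, and open circles are libraries with 0 reads. Rag1, Ebf1, Pax5 and Igll1 lie between 13.5 and 37.4 CPM in c-kit+ cells and at or near 0 in sorted cells, while Gpr171 is highest in LT-HSC and CMP/GMP.

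Among the sorted WT populations, Gpr171 and Notch1 were lowest in MEP. Gpr171 was called higher in LT-HSC than in MEP (log2 3.13, SE 0.58, adjusted p = 0.000858) and higher in CMP/GMP than in MEP (log2 2.81, SE 0.57, adjusted p = 0.00460), where MEP WT held 10.6, 14.995 and 7.19 CPM. The second of these calls was lost without MEP WT 4 (adjusted p = 0.0714). Notch1 (chromosome 2, 26457902 to 26503822) was at 50.3, 19.8, 48.5 and 23.1 CPM in LT-HSC WT, against 0.381, 9.63 and 6.67 CPM in MEP WT. It was called higher in LT-HSC than in MEP (log2 2.67, SE 0.83, adjusted p = 0.0366), and the libraries did not overlap. That call was lost without any 1 MEP WT library and without LT-HSC WT 1 or WT 3, with adjusted p up to 0.121. In all, 2 of the 10 members were called higher in LT-HSC than in MEP, where 6.25% of all genes were called higher and 11.1% in either direction, and 1 was called higher in CMP/GMP than in MEP, where 1.9% were called higher and 2.91% in either direction.

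Dntt (chromosome 19, 41029275 to 41059525), the terminal transferase that adds untemplated bases at antigen receptor joints, was highest in CMP/GMP and uneven in LT-HSC. Its level was 72.2, 0.286, 6.79 and 2.16 CPM in LT-HSC WT, against 62.4, 130.2, 38.8 and 172.6 CPM in CMP/GMP WT and 2.35, 13.3 and 1.16 CPM in MEP WT. Of the 4 LT-HSC WT libraries, only library 1 reached the CMP/GMP range, and its granulocyte-macrophage markers summed to 3366 CPM, against 381 to 591 CPM in the other 3. The difference between LT-HSC and CMP/GMP was not called with all libraries (log2 -2.31, SE 1.09, adjusted p = 0.156), and was called without LT-HSC WT 1 (log2 -5.03, adjusted p = 0.00860). The part of granulocyte-macrophage RNA in that library's Dntt was not tested. Between CMP/GMP and MEP the difference was log2 4.16 (SE 1.338, adjusted p = 0.0884).

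Satb1 (chromosome 17, 51736187 to 51833290), a chromatin organiser that promotes lymphoid potential in mouse stem cells, was at 16.6, 5.96, 4.22 and 16.2 CPM in LT-HSC WT, against 45.9, 21.7, 34.1 and 24.0 CPM in CMP/GMP WT and 6.13, 7.19 and 8.93 CPM in MEP WT. The LT-HSC and CMP/GMP libraries did not overlap, as was so for 14.5% of all genes, and the difference was not called (log2 -1.55, SE 0.66, adjusted p = 0.118). Between LT-HSC and CMP/GMP, 0 members were called by edgeR and 0 by DESeq2, where edgeR called 8.96% of all genes, and 4 had an unadjusted p under 0.05 (Dntt, Satb1, Ebf1 and Igll1). Of these, Ebf1 and Igll1 had too few reads to pass the filter in sorted cells alone, and the Igll1 estimate turned to log2 0.41 without CMP/GMP WT 3. CMP/GMP WT 3, the library with the most granulocyte-macrophage marker RNA (32275 CPM in sum), had the lowest Dntt of its group, and the remaining 3 libraries summed to 6392 to 9049 CPM. Among the CMP/GMP KO libraries, KO 4 had the most of these markers (22623 CPM) and 66.0 CPM of Dntt. KO 3, at 21576 CPM of the markers, had the highest Dntt, at 136 CPM. A relation of the markers to Dntt was not tested.

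Other lymphoid priming genes were called in both directions between sorted WT populations. Of 12 tested, 2 were called higher and 2 lower in LT-HSC than in CMP/GMP. Lax1, a lymphocyte adaptor, was higher (log2 5.69, adjusted p = 0.0185), and Flt3, the cytokine receptor of lymphoid-primed progenitors, was lower (log2 -1.87, adjusted p = 0.0298). Leaving out 1 library at a time, the Flt3 call was lost except without CMP/GMP WT 1 or LT-HSC WT 2 (adjusted p up to 0.0767), and the Lax1 call was lost without CMP/GMP WT 2 or WT 4 (adjusted p up to 0.0656). Of 10 Notch target and early T cell genes tested, 3 were called higher in LT-HSC than in CMP/GMP and 2 lower. Hes1, a direct Notch target, was at 247, 24.2, 30.1 and 12.4 CPM in LT-HSC WT, against 0.216, 1.48, 0.669 and 1.16 CPM in CMP/GMP WT (adjusted p = 0.00170). Its mean in LT-HSC rested on WT 1, and without that library the difference was log2 4.64 (adjusted p = 0.00714). Notch1 itself differed by log2 0.56 (SE 0.70, adjusted p = 0.675) between them.

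Of the members tested in sorted Dnmt3a KO and WT cells, Satb1 in LT-HSC had the lowest p. Its level was 0.322, 0.667, 0.0604 and 0.273 CPM in the 4 Dnmt3a KO libraries, from 12, 12, 2 and 11 reads, against 16.6, 5.96, 4.22 and 16.2 CPM in the 4 WT libraries. The highest KO library was below the lowest WT library, and the value 0.0604 belongs to the library labelled KO 3, the one with Dnmt3a at 104 CPM. The log2 fold change was -5.00 (SE 1.43, unadjusted p = 0.00445), which ranked 11 of 12800 genes by p. The adjusted p was 0.99996 with edgeR, which called 0 genes here. DESeq2 called Satb1 (log2 -5.05, adjusted p = 1.01e-05) among 42 genes. Groups that did not overlap were found for 1.71% of all genes tested.

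The Satb1 libraries of KO and WT overlapped in the other sorted populations. In CMP/GMP it was at 26.4, 18.2, 21.6 and 46.6 CPM in KO libraries, against 45.9, 21.7, 34.1 and 24.0 CPM in WT libraries, which overlapped throughout (log2 -0.15, SE 0.35, adjusted p = 0.943). The MEP libraries held 0.517, 32.2, 23.4 and 17.1 CPM in KO libraries, against 6.13, 7.19 and 8.93 CPM in WT libraries (log2 1.29, SE 1.11, adjusted p = 0.615). There, 3 KO libraries lay above all WT libraries and KO 1 below them. The test of a difference of the KO effect between LT-HSC, CMP/GMP and MEP, an F-test in 1 fit of their 23 libraries, gave Satb1 an unadjusted p of 8.88e-05 (rank 7 of 16136 genes) and an adjusted p of 0.203. The KO effect in CMP/GMP exceeded that in LT-HSC by log2 4.89, and that in MEP exceeded it by 6.35. Satb1 passed the threshold in this test with DESeq2, and with edgeR when MEP KO 1 was left out. Those fits called 166 and 844 genes, against 3 in the main fit.

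Another marker list moved with the LT-HSC genotypes. The 9 mature B and plasma cell genes summed to 112, 113, 32.1 and 108 CPM in the KO libraries, against 116, 380.3, 261 and 388 CPM in the WT libraries. Most of it was Cd74, the invariant chain of MHC class II, at 74.6 ± 31.9 CPM in KO and 248 ± 106 CPM in WT (SD, n = 4 each), while Cd22 was at 0 in all 8 libraries and Ms4a1 at 0 in the KO libraries. The part of such cells in the Satb1 result was not tested. The early B factors Ebf1 and Pax5 were at 0 reads in all 4 WT libraries.

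**Figure D2:**
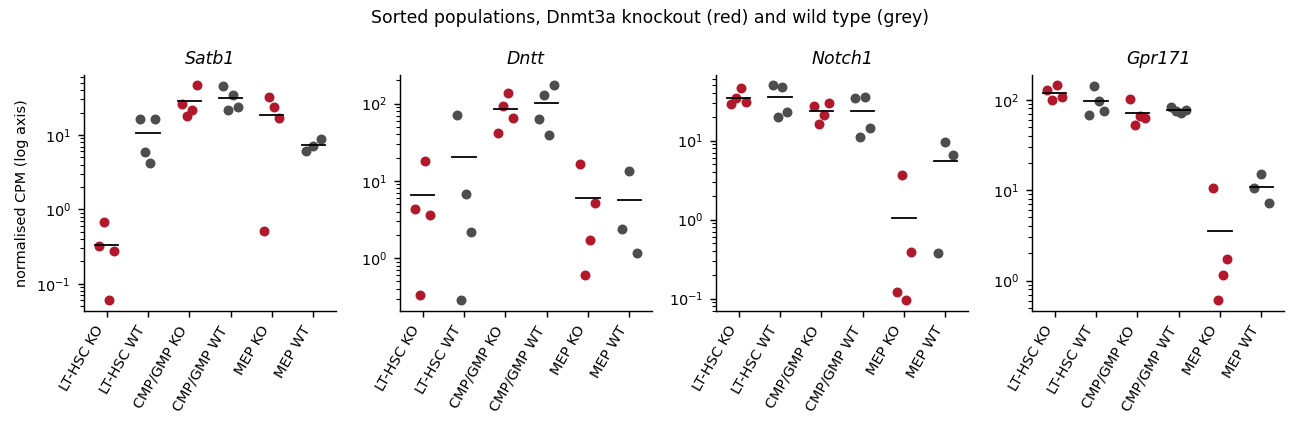
Normalised CPM (log axis) of Satb1, Dntt, Notch1 and Gpr171 in sorted Dnmt3a KO and WT libraries; each point is 1 library and bars are means. In LT-HSC the 4 KO libraries hold 0.0604 to 0.667 CPM of Satb1 and the 4 WT libraries 4.22 to 16.6 CPM, while the other genes overlap between genotypes in LT-HSC and CMP/GMP.

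The other priming members did not separate Dnmt3a KO from WT stem cells. Of the 10 members, 6 passed the filter on low counts in LT-HSC, 6 in CMP/GMP and 5 in MEP, and Rag1, Ebf1, Pax5 and Igll1 passed in none of them. In each of these 3 populations edgeR called 0 members and 0% of all genes, and DESeq2 called 1 member in LT-HSC and 0 in CMP/GMP and MEP. An unadjusted p under 0.05 was found for 1 member in LT-HSC (Satb1) and for none in CMP/GMP or MEP. The F-test across populations called 0 members and 0.0186% of all genes.

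In LT-HSC, Dntt was at 4.29, 0.334, 17.9 and 3.63 CPM in KO libraries, against 72.2, 0.286, 6.79 and 2.16 CPM in WT libraries, and the ranges overlapped (log2 -1.65, SE 1.498, adjusted p = 0.99996). Without WT 1 the estimate was log2 1.10, and without WT 1 and KO 2 it was 1.49. Notch1 was at 29.5, 34.3, 46.0 and 30.9 CPM in KO libraries, within the WT range of 19.8 to 50.3 CPM. Gpr171 was at 127, 98.7, 144.5 and 106 CPM in KO libraries, against 67.4, 143, 96.9 and 75.2 CPM in WT libraries (log2 0.33, SE 0.32, adjusted p = 0.99996). These 3 genes overlapped between genotypes. Il7r was at 0.161, 0.111, 0.181 and 0.497 CPM in KO libraries, against 0.658, 0, 9.65 and 0.418 CPM in WT libraries, with the most in WT 3. Its log2 fold change was -3.46 (SE 2.03, adjusted p = 0.99996), and -0.58 without WT 3. Over the 6 tested members the median log2 fold change was -1.08, against 0.00 over all genes, and it was -0.36 without WT 1, -0.35 without WT 3, -0.67 without KO 2 and -2.25 without KO 3.

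In CMP/GMP no member separated the genotypes. Dntt was at 41.8, 94.0, 136 and 66.0 CPM in KO libraries, against 62.4, 130.2, 38.8 and 172.6 CPM in WT libraries (log2 -0.24, SE 0.45, adjusted p = 0.919). Gpr171 was at 103, 52.7, 66.6 and 62.0 CPM in KO libraries, against 83.1, 74.3, 70.9 and 77.7 CPM in WT libraries (log2 -0.10, SE 0.22, adjusted p = 0.938). The Dntt estimate was 0.13 without WT 4 and 0.03 with WT 2 and WT 4 summed, so the sign turned in both. Every tested member overlapped between the groups, where 5.63% of all genes did not. The SE was 0.22 to 1.17, and Il7r, at 0.181 to 1.91 CPM in KO and 0.0616 to 0.669 CPM in WT, was the least precise. The median log2 fold change was -0.05 over the 6 tested members and 0.01 over all genes, and turned to 0.02 without KO 2 or without WT 1.

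In MEP no member was called, and the KO libraries were uneven. Gpr171 was at 10.5, 0.608, 1.15 and 1.73 CPM in KO libraries, against 10.6, 14.995 and 7.19 CPM in WT libraries (log2 -1.65, SE 1.17, adjusted p = 0.545). KO 2, 3 and 4 lay below all WT libraries, and KO 1 did not. Without KO 1, Gpr171 was the 1 member called (log2 -3.21, adjusted p = 0.0383; 2882 genes were called in that fit, against 0 with all libraries). Notch1 was at 0.122, 3.65, 0.0956 and 0.385 CPM in KO libraries, against 0.381, 9.63 and 6.67 CPM in WT libraries (log2 -2.47, SE 1.70, adjusted p = 0.535). No tested member was free of overlap in MEP, as was so for 12.8% of all genes. Dntt was at 16.4, 0.608, 1.72 and 5.20 CPM in KO libraries, against 2.35, 13.3 and 1.16 CPM in WT libraries, with the highest value in KO 1. MEP KO 1 also held 288 CPM of mature B and plasma cell genes, 76.9 CPM of macrophage markers and 1303 CPM of granulocyte-macrophage markers, and MEP KO 2 held 124, 18.9 and 3017 CPM of them, against at most 9.83, 1.85 and 533 CPM in MEP WT. The part of such cells in these levels was not tested. Of the 9 mature B and plasma cell genes, 2 (Ms4a1 and Cd22) were at 0 in all 4 MEP KO libraries. The members Ebf1, Pax5 and Igll1 were also at 0 there, while Vpreb1 was at 2.68 CPM in MEP KO 1.

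In c-kit+ cells, Dntt and Il7r were lower in all 7 libraries without Dnmt3a, Sting or both than in the 2 WT libraries. Dntt was at 36.7, 37.9 and 53.4 CPM in DKO, 44.7 and 53.5 CPM in the Dnmt3a KO, and 57.6 and 29.2 CPM in the Sting KO, against 83.2 and 81.2 CPM in WT. Il7r was at 12.2, 12.2 and 15.6 CPM in DKO, 12.5 and 14.1 CPM in the Dnmt3a KO, and 18.6 and 12.6 CPM in the Sting KO, against 24.0 and 20.002 CPM in WT. No knockout library reached a WT library for either gene, and the 3 knockout groups overlapped with each other. None of these differences passed the adjusted test. The share of all genes with such a pattern over all 7 libraries was not determined. Against WT alone, 32.1% of all genes did not overlap in DKO, 53.9% in Dnmt3a KO and 45.6% in Sting KO.

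For Dntt the log2 fold change was -0.94 in DKO (SE 0.25, unadjusted p = 0.00397, adjusted p = 0.111), -0.73 in Dnmt3a KO (SE 0.28, unadjusted p = 0.0271, adjusted p = 0.245) and -0.93 in Sting KO (SE 0.28, unadjusted p = 0.00794, adjusted p = 0.210), each over WT in edgeR's test. For Il7r it was -0.72 in DKO (SE 0.19, unadjusted p = 0.00367, adjusted p = 0.106), -0.71 in Dnmt3a KO (SE 0.21, unadjusted p = 0.00739, adjusted p = 0.161) and -0.51 in Sting KO (SE 0.21, unadjusted p = 0.0353, adjusted p = 0.388). All 10 members were tested in c-kit+ cells. The comparisons with WT share the same 2 WT libraries, so they are not separate evidence. DESeq2 called Il7r in DKO (adjusted p = 0.00929) and in Dnmt3a KO (adjusted p = 0.0342), and called Dntt in none of the 3. With edgeR, Dntt in DKO passed the threshold without DKO 3 or without either Sting KO library (adjusted p = 0.0360 to 0.0390), and Il7r in DKO without DKO 3 (adjusted p = 0.0410). Without the filter on low counts, Dntt was called in DKO, Dnmt3a KO and Sting KO (adjusted p = 5.72e-08, 0.000361 and 2.77e-06) and Il7r in DKO and Dnmt3a KO (adjusted p = 0.00169 and 0.00979). With the replicate number as a block both were called in DKO (adjusted p = 0.0449 for Dntt and 0.0488 for Il7r). The settings named here are those that gained a call. Leaving out 1 library at a time, Dntt ranged from log2 -1.13 to -0.84 in DKO, -0.89 to -0.60 in Dnmt3a KO and -1.51 to -0.53 in Sting KO. Il7r ranged from -0.86 to -0.57, -0.85 to -0.57 and -0.82 to -0.27 in the same order.

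Called members numbered 0 in each c-kit+ comparison, against 1.26% of all genes called in DKO over WT, 0.568% in Dnmt3a KO over WT and 0.774% in Sting KO over WT. An unadjusted p under 0.05 was found for 3 members in DKO over WT (Dntt, Il7r and Gpr171), 2 in Dnmt3a KO over WT and 2 in Sting KO over WT (Dntt and Il7r in both). With so few libraries, groups that do not overlap are common: 3 of the 10 members did not overlap in DKO over WT, 4 in Dnmt3a KO over WT and 4 in Sting KO over WT, against 32.1%, 53.9% and 45.6% of all genes. Gpr171 was at 13.8, 10.7 and 14.6 CPM in DKO, 15.4 and 15.3 CPM in the Dnmt3a KO, and 17.8 and 13.6 CPM in the Sting KO, against 19.98 and 15.8 CPM in WT (DKO over WT log2 -0.45, SE 0.18, adjusted p = 0.242).

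**Figure D3:**
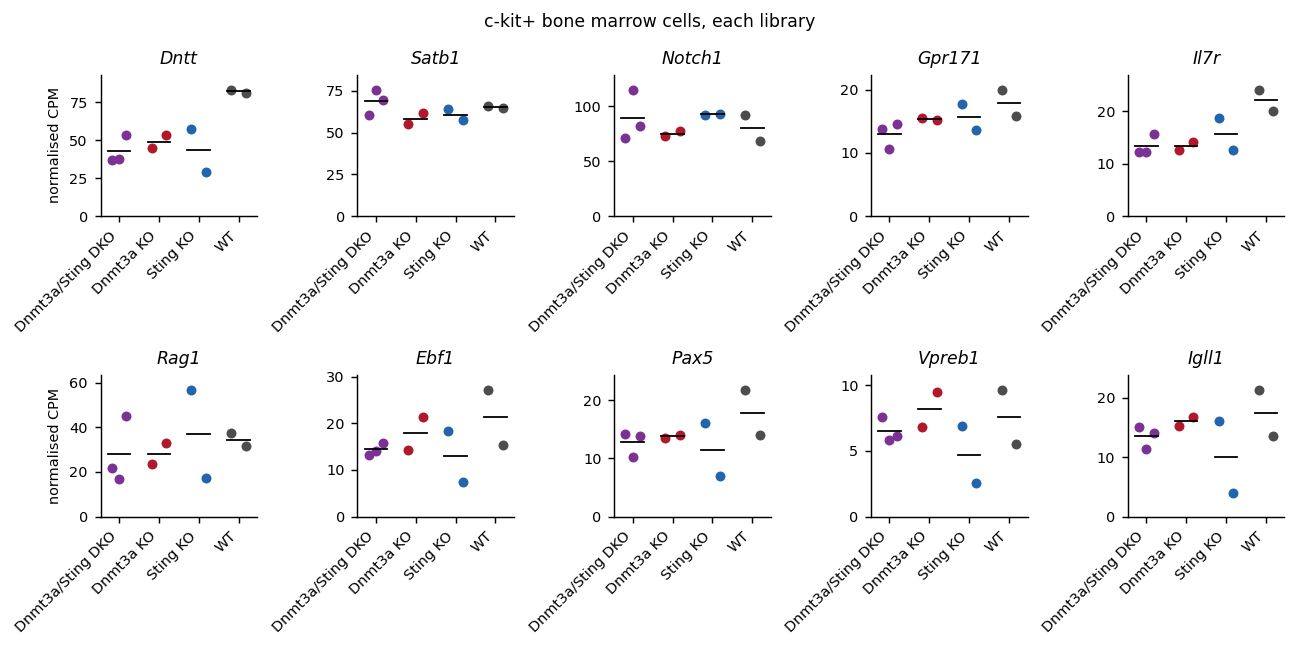
Normalised CPM (linear axes from 0) of the 10 genes in each c-kit+ library of the Dnmt3a/Sting DKO, Dnmt3a KO, Sting KO and WT; each point is 1 library and bars are means. All 7 knockout libraries lie below both WT libraries for Dntt (29.2 to 57.6 against 81.2 and 83.2 CPM) and Il7r (12.2 to 18.6 against 20.002 and 24.0 CPM), and the B-lineage genes overlap. The share of all genes with such a pattern was not determined.

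Markers of several other cell types differed between the same groups. The 6 macrophage markers summed to 339 to 493 CPM in DKO, 502 and 515 CPM in the Dnmt3a KO, and 305 and 320 CPM in the Sting KO, against 1282 and 1352 CPM in WT, with none of the 6 at 0. Among them, 6 were called lower in DKO, 2 in Dnmt3a KO and 4 in Sting KO, with Hmox1, a haem-degrading enzyme, the largest in DKO (log2 -2.97, SE 0.27, adjusted p = 0.00225). The 8 erythroid and megakaryocyte markers summed to 576 to 928 CPM in DKO, 984 and 795 CPM in the Dnmt3a KO, and 749.5 and 763 CPM in the Sting KO, against 1169.8 and 1178 CPM in WT. The 6 granulocyte-macrophage markers summed to 15586 to 21457 CPM in DKO, 16224 and 15409 CPM in the Dnmt3a KO, and 17738 and 20794 CPM in the Sting KO, against 13463 and 14163 CPM in WT. So in all 7 knockout libraries the erythroid and megakaryocyte sum was below, and the granulocyte-macrophage sum above, both WT libraries. No marker of either list was at 0 throughout a group. Single markers did not all follow these sums. Of the 8 erythroid and megakaryocyte estimates over WT, 2 were below 0 in Dnmt3a KO, 6 in DKO and 8 in Sting KO. Of the 6 granulocyte-macrophage estimates, 3 were above 0 in Dnmt3a KO and all 6 in DKO and Sting KO. The mature B and plasma cell genes summed to 106 to 217 CPM in DKO, 139 and 103 CPM in the Dnmt3a KO, and 171 and 168 CPM in the Sting KO, against 268 and 209 CPM in WT, where DKO overlapped with WT. Xist, the transcript of the inactive X chromosome, was present in both Dnmt3a KO libraries and in DKO 1, and absent or near absent in the other c-kit+ libraries. Both WT libraries had Y-linked RNA, so sex and genotype cannot be told apart between Dnmt3a KO and WT. A term for sex rests on the DKO libraries, of which DKO 1 alone had Xist. With this term, the Dntt estimate in Dnmt3a KO over WT was -0.40 (adjusted p = 0.857). Over all alternatives, the weakest estimate in Dnmt3a KO over WT was -0.40 for Dntt and -0.52 for Il7r. The part of these cells' RNA in the Dntt and Il7r values was not tested.

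The B-lineage members overlapped between all knockout groups and WT in c-kit+ cells. Ebf1 was at 13.3, 14.02 and 15.9 CPM in DKO, 14.3 and 21.3 CPM in the Dnmt3a KO, and 18.4 and 7.40 CPM in the Sting KO, against 27.1 and 15.4 CPM in WT. Pax5 was at 14.2, 10.2 and 13.9 CPM in DKO, 13.6 and 13.9 CPM in the Dnmt3a KO, and 16.0 and 7.01 CPM in the Sting KO, against 21.7 and 13.9 CPM in WT. Both transcription factors were highest in WT 1 and lowest in Sting KO 2. Igll1 was at 15.1, 11.4 and 14.01 CPM in DKO, 15.3 and 16.7 CPM in the Dnmt3a KO, and 16.1 and 4.03 CPM in the Sting KO, against 21.3 and 13.5 CPM in WT. Vpreb1 was at 7.58, 5.84 and 6.16 CPM in DKO, 6.83 and 9.52 CPM in the Dnmt3a KO, and 6.91 and 2.53 CPM in the Sting KO, against 9.64 and 5.49 CPM in WT. For all 4 genes WT 1 was the highest library and Sting KO 2 the lowest, and every knockout group overlapped with WT. The widest log2 estimates were those of Sting KO over WT, at -0.73 for Ebf1, -0.64 for Pax5, -0.69 for Vpreb1 and -0.80 for Igll1 (SE 0.35 to 0.48, adjusted p = 0.526 to 0.581).

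Rag1 followed other libraries than Ebf1 and Pax5. It was at 21.6, 16.8 and 45.2 CPM in DKO, 23.6 and 32.8 CPM in the Dnmt3a KO, and 56.8 and 17.4 CPM in the Sting KO, against 37.4 and 31.5 CPM in WT. Its highest value was in Sting KO 1 and the next in DKO 3, both above the WT pair. All 3 knockout groups overlapped with WT (log2 -0.30, -0.27 and 0.09 in DKO, Dnmt3a KO and Sting KO, SE 0.48 to 0.53, adjusted p = 0.808 to 0.969).

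The summed level of Ebf1, Pax5, Vpreb1 and Igll1 was 41.5 to 50.1 CPM in DKO, 50.03 and 61.5 CPM in the Dnmt3a KO, and 57.5 and 21.0 CPM in the Sting KO, against 79.8 and 48.3 CPM in WT. The 14 other early B genes summed to 91.0 to 155 CPM in DKO, 116 and 135 CPM in the Dnmt3a KO, and 155 and 90.3 CPM in the Sting KO, against 238 and 137 CPM in WT. WT 1 was highest and Sting KO 2 lowest in both sums. Among the 14, 0 were called in any c-kit+ comparison, while the log2 estimate was below 0 for 14 in DKO, 12 in Dnmt3a KO and 14 in Sting KO over WT, with medians of -0.59, -0.53 and -0.74 against 0.00 over all genes in each. Over the 10 members the medians were -0.41, -0.22 and -0.58, with 8, 9 and 8 estimates below 0. Leaving out 1 library at a time gave medians of -0.99 to -0.05, -0.90 to -0.06 and -1.27 to -0.15 over the 14 genes, each closest to 0 without WT 1. Over the 10 members it gave -0.64 to -0.09, -0.41 to -0.01 and -1.18 to -0.14, closest to 0 without WT 1 in DKO and Dnmt3a KO and without Sting KO 2 in Sting KO. Without DKO 3, 2 of the 14 were called in DKO over WT.

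**Figure D4:**
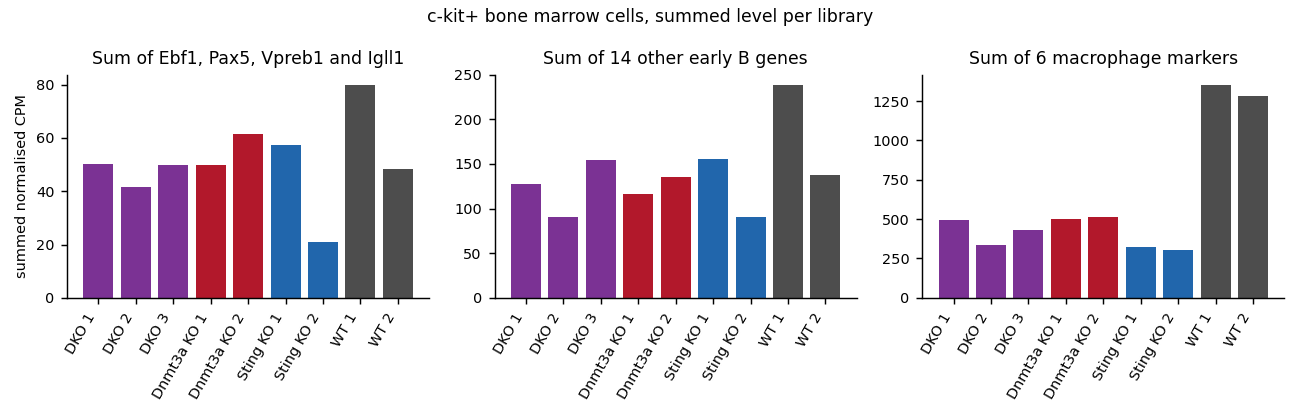
Summed normalised CPM per c-kit+ library of Ebf1, Pax5, Vpreb1 and Igll1 (left), 14 other early B genes (middle) and 6 macrophage markers (right), with bars from 0. The B-lineage sums of Sting KO 2 (21.0 and 90.3 CPM) and WT 1 (79.8 and 238 CPM) bracket the other libraries, and the macrophage sums of all knockout libraries (305 to 515 CPM) lie below those of WT (1282 and 1352 CPM).

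Satb1 and Notch1 were not called in any c-kit+ comparison. Satb1 was at 60.7, 75.7 and 69.6 CPM in DKO, 55.0 and 61.7 CPM in the Dnmt3a KO, and 63.9 and 57.3 CPM in the Sting KO, against 65.7 and 64.6 CPM in WT. The Dnmt3a KO estimate over WT was log2 -0.14 (SE 0.12, adjusted p = 0.599), against -5.00 in LT-HSC, and the difference between c-kit+ cells and LT-HSC in this effect was not tested. Notch1 was at 71.0, 115 and 82.4 CPM in DKO, 72.9 and 77.7 CPM in the Dnmt3a KO, and 91.9 and 93.4 CPM in the Sting KO, against 91.7 and 68.3 CPM in WT. DKO 2 was the highest library and the WT pair spanned both Dnmt3a KO libraries.

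Removing Sting on top of Dnmt3a, or Dnmt3a on top of Sting, moved no member past the threshold. Between DKO and Dnmt3a KO, 0 members were called, where 0.156% of all genes were called, and between DKO and Sting KO 0 members and 0% of all genes. No member had an unadjusted p under 0.05 in either, and DESeq2 called 0 members. In DKO over Dnmt3a KO 2 members did not overlap (Gpr171 and Igll1), against 24.4% of all genes, and in DKO over Sting KO 0 members, against 26.8%. The log2 estimate for Dntt was -0.21 (SE 0.25) in DKO over Dnmt3a KO and -0.01 (SE 0.26) in DKO over Sting KO, and for Il7r -0.01 (SE 0.19) and -0.21 (SE 0.19).

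The interaction, DKO minus Sting KO less the change of the Dnmt3a KO from WT, was log2 0.72 for Dntt (SE 0.38, unadjusted p = 0.0882, adjusted p = 0.750) and 0.50 for Il7r (SE 0.29, unadjusted p = 0.109, adjusted p = 0.775). The interaction was called for 0 members and 0.15% of all genes, with 0 members at an unadjusted p under 0.05 and 0 called by DESeq2. The SE of 0.16 to 0.72 over the members limits what this design could show.

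**Figure D5:**
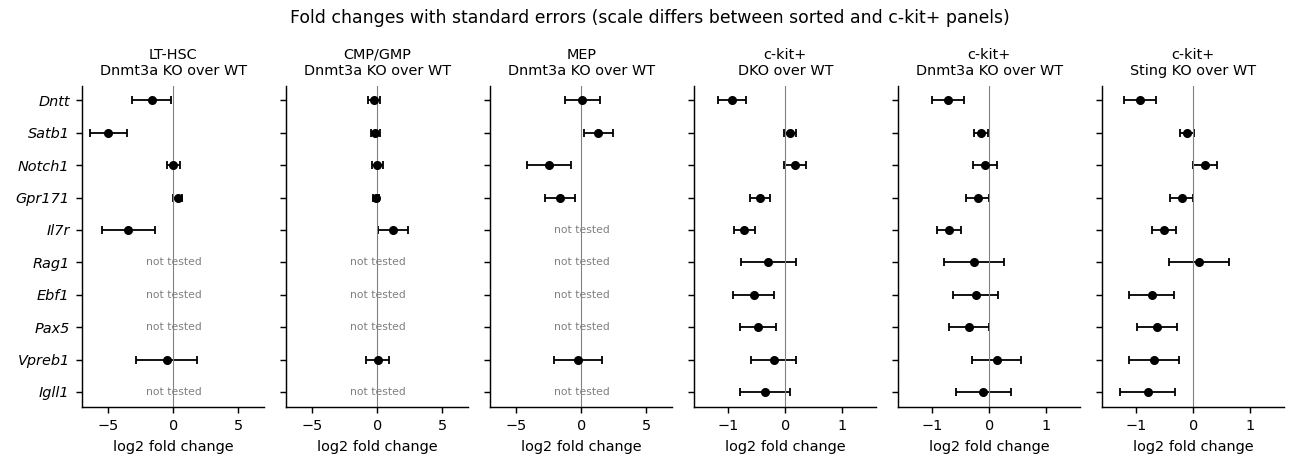
Log2 fold changes of the 10 genes over WT in LT-HSC, CMP/GMP and MEP (left panels, wider scale) and in c-kit+ cells (right panels); points are edgeR estimates and bars standard errors. Satb1 in LT-HSC (-5.00) is the estimate farthest from 0, and Dntt and Il7r lie at -0.94 to -0.51 in the c-kit+ panels.

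None of the 12 other lymphoid priming genes, the 14 other early B genes, the 9 mature B and plasma cell genes or the Notch target and early T cell genes was called in any comparison of genotypes by edgeR. In the NK, innate lymphoid and plasmacytoid dendritic cell list, 1 of 8 genes was called. Ncr1, the NK cell receptor NKp46, averaged 6.0 ± 0.6 CPM in c-kit+ Dnmt3a KO and 1.9 ± 0.0 CPM in c-kit+ WT (SD, n = 2 each; log2 1.64, SE 0.27, adjusted p = 0.0334), a call that was lost without any 1 of these 4 libraries (adjusted p up to 0.263). Among the other priming genes Ikzf1, the Ikaros factor, was the most abundant in c-kit+ cells, at 496 ± 19 CPM in the Dnmt3a KO and 457.4 ± 1.0 CPM in WT (SD, n = 2 each).

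Levels can be compared between members only per length of exon. Per kilobase of merged exons, Dntt was the most abundant member in c-kit+ WT, at 35.9 CPM per kb, followed by Gpr171 at 8.05, Igll1 at 8.04, Vpreb1 at 6.31 and Notch1 at 5.62 CPM per kb. Pax5, at 2.01 CPM per kb, was the lowest. In LT-HSC WT the order was led by Gpr171, at 43.0 CPM per kb, ahead of Dntt at 8.89 CPM per kb.

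Members also differed in which genes they resembled. Over the means of the 10 groups, on a log2 CPM scale with a prior count of 2, Rag1, Ebf1 and Pax5 correlated with each other at 0.995 to 0.999, and Il7r with Rag1 at 0.979. Among 13267 genes with a group mean of at least 1 CPM, the gene most like Rag1 was Pou2af1 (Pearson r = 0.999), and the gene most like Ebf1 was Pax5 (r = 0.999). The second closest to Rag1 and Ebf1 were Inpp5j (r = 0.998) and Pou2af1 (r = 0.998). The closest gene to Dntt was Kcng1 (r = 0.989), to Satb1 Alox5 (r = 0.982), to Pax5 Pou2af1 (r = 0.9997), to Notch1 Limk1 (r = 0.994), to Gpr171 Tnfsf9 (r = 0.990), to Il7r Cd2ap (r = 0.995), to Vpreb1 Diras2 (r = 0.987) and to Igll1 Pilrb1 (r = 0.997). The groups share populations and some share controls, so these values describe the pattern only.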

How the data were processed

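Bulk RNA-seq gene counts of 32 libraries from mouse bone marrow were used. Per the labels' protocols, polyA RNA was amplified with a modified SMART-Seq2 method. The authors deposited a table of read counts per gene, and per the submitters' processing notes the tools were Trim Galore 0.6.7, HISAT2, featureCounts 2.0.1 and DESeq2 1.34.0 with mm10; no source used here gives the strand setting. Of 40 gene columns, 8 were not used, those of the short-term stem cells. Between 63.9% and 87.1% of counts from 1 to 20 were even, so both mates of a pair appear to be counted and read numbers overstate molecules.

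Here, counts were scaled by TMM and tested with edgeR 4.0.16 in R 4.3.3 (quasi-likelihood test, filterByExpr with a minimum count of 10 and a minimum total of 15). Benjamini-Hochberg adjustment ran over all genes tested, and a gene with adjusted p under 0.05 was called. Separate fits held each sorted population, the 9 c-kit+ libraries, the 23 sorted libraries for the F-test, and all 32 libraries for comparisons of populations. Fold changes are tested over control or, for the interaction, a difference of log2 fold changes. Alternatives were RLE scaling, testing without the filter, DESeq2 1.42.0, the replicate number as a block, 1 fit over sorted populations, a term for sex in c-kit+ cells, and each library left out. Leaving out 1 library for medians and other lists, leaving out LT-HSC WT 1 with KO 2, summing similar libraries and leaving out c-kit+ libraries of other groups were chosen after seeing the data. The code was tested on simulated counts. A floor of 3 reads over the group stood for a count of 0, which covers counting error only and may be too low with both mates counted.

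The 10 members and the other gene lists were chosen with earlier results of these data known. All members were named. Of each other list, up to 3 called genes per comparison or, with none called, the 2 most abundant could be named, together with the genes whose group means correlated best with a member's. Some genes that this rule would name are not reported here.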

Additional observations from a re-analysis of the deposited data

Results flagged for a closer look

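In 6 of the 28 groups of 4 libraries in which a member reached 1 CPM, the highest library stood apart from the other 3 by Dixon's test of the gap over the range. The critical value assumes normally distributed values, which CPM near 0 need not follow. Groups also share libraries, and some entered the test only through the flagged library. How many flags chance would give was not tested. Dntt was at 72.2 CPM in LT-HSC WT 1, with the next library at 6.79 CPM. Il7r was at 9.65 CPM in LT-HSC WT 3, with the next at 0.658 CPM. Igll1 was at 1.40 CPM in CMP/GMP WT 3, with the next at 0.0483 CPM. In MEP KO 1, Gpr171 was at 10.5 CPM and Il7r at 7.11 CPM, with the next libraries of that group at 1.73 and 1.11 CPM. Notch1 was at 3.65 CPM in MEP KO 2, the shallowest library, with the next at 0.385 CPM.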

How the results depend on the processing

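The number of members called depended on the tool and the filter in several comparisons. DESeq2 called 1 member in LT-HSC KO over WT (Satb1), 1 in the F-test across populations (Satb1), 1 in c-kit+ Dnmt3a KO over WT (Il7r), 1 in DKO over WT (Il7r) and 4 in CMP/GMP over MEP (Dntt, Satb1, Gpr171 and Igll1). Without the filter on low counts, 2 were called in Dnmt3a KO over WT, 3 in Sting KO over WT (Dntt, Ebf1 and Igll1), 2 in DKO over WT, 1 in the interaction (Dntt) and 2 in CMP/GMP over MEP. Over all genes, the alternatives called 210 to 1970 in CMP/GMP over MEP, against 538 in the main fit. They called 787 to 3291 in LT-HSC over CMP/GMP, against 1660, and 1092 to 3984 in LT-HSC over MEP, against 2062. Replicate numbers were not taken to pair the libraries, since for no pair of groups with 3 or more numbers did every pair of same-numbered libraries correlate above 0.1 in its deviations (-0.24 to 0.19 between genotypes of a population, -0.095 to 0.38 between sorted populations). The numbers do go with sex in LT-HSC and MEP. There, libraries 1 and 2 had Y-linked RNA and libraries 3 and 4 Xist in both genotypes, as far as each was present. The CMP/GMP KO libraries were split in the same way. Among the CMP/GMP WT libraries, WT 4 had Y-linked RNA like WT 1 and WT 2, and only WT 3 had Xist. The fit with the replicate number as a block called 2 members in DKO over WT (Dntt and Il7r) and 1 in LT-HSC over MEP (Gpr171). It called 832 genes in DKO over WT, against 202 without the block. Without LT-HSC WT 1 and KO 2, 1 member was called in LT-HSC over CMP/GMP (Dntt) and 1 in LT-HSC over MEP. Leaving out 1 library at a time gave 0 to 2 called members in the F-test, 0 to 1 in MEP, 0 to 2 in DKO over WT, 0 to 1 in LT-HSC over CMP/GMP, 1 to 2 in LT-HSC over MEP, 0 to 1 in CMP/GMP over MEP, 3 to 6 in c-kit+ over CMP/GMP, 4 to 7 over LT-HSC, 5 to 7 over MEP, and 0 in the other comparisons. Where that left 1 library in a c-kit+ group, it is assumed to vary like the other groups. Some estimates changed sign when 1 library was left out: Igll1 in LT-HSC over CMP/GMP (log2 -6.57 to 0.41), and, in KO over WT, Dntt in LT-HSC (-2.90 to 1.10), CMP/GMP (-0.56 to 0.13) and MEP (-1.16 to 1.74), Satb1 in CMP/GMP (-0.50 to 0.10) and Gpr171 in CMP/GMP (-0.32 to 0.025). Dntt also turned to 1.49 in LT-HSC without WT 1 and KO 2 and to 0.026 in CMP/GMP with similar libraries summed, and Satb1 in MEP to -0.0073 with the replicate block. Of 1725 member estimates under alternatives, 115 had the opposite sign, and 0 of those were called with or without the alternative. Over all genes, edgeR and DESeq2 called 0 and 42 in LT-HSC, 0 and 334 in CMP/GMP, 0 and 664 in MEP, 3 and 166 in the F-test, 91 and 618 in Dnmt3a KO over WT, 124 and 447 in Sting KO over WT, 25 and 97 in DKO over Dnmt3a KO, 0 and 131 in DKO over Sting KO, 202 and 914 in DKO over WT and 24 and 200 in the interaction. Without the filter, edgeR called 1219, 735, 415, 408, 1359 and 446 in these last 6. With a term for sex, which rests on the DKO libraries alone, it called 0 in Dnmt3a KO over WT and 73 in DKO over WT. RLE size factors moved the median of all genes by 0.12 in LT-HSC over CMP/GMP, -0.12 in c-kit+ over LT-HSC and -0.12 in c-kit+ over MEP. The causes of these changes were not tested. Depth limits the members at or near 0 reads in sorted cells, and the MEP KO 2 library, with 3.44 (in units of 1e+06) gene reads, limits MEP.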
